A study of Homo sapiens with 27 samples.

Results

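Cell-surface receptors that mark melanoma states or carry resistance to BRAF and MEK inhibitors were followed through depletion of SIRT5, a sirtuin of the mitochondria and cytosol that strips acyl groups such as succinyl from lysines. The 10 receptors were taken by gene symbol from the deposited expression table of 26004 genes, whatever their values. They are AXL, NGFR, MET, EGFR, ERBB2, ERBB3, KIT, PDGFRB, FGFR1 and IGF1R, and each symbol matched 1 row. RNA-seq was done on 27 libraries from the human melanoma lines SKMEL2, A375 and A2058. A2058 and A375 are known as BRAF-mutant lines and SKMEL2 as an NRAS-mutant line. In each line the arms KD1 and KD2 carried a different lentiviral short hairpin against SIRT5, and the control arm NT carried a hairpin against Gaussia luciferase, a gene that human cells do not have. All arms shared the pLKO.1 vector, puromycin at 1 µg/ml and lysis in TRIzol 96 h after transduction, with 3 wells, and so 3 libraries, per arm. The labels number the hairpins 546 and 547 and the table calls them KD1 and KD2, and the sources used here do not link these names. NRAS-mutant melanoma is represented by 1 line, so genotype and line cannot be told apart. The wells need not be independent cultures, so p-values measure a spread that may be technical.

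Apart from NGFR these are receptors of the tyrosine kinase class: a ligand typically pairs them, they phosphorylate each other, and adaptors then start the RAS, PI3K and STAT pathways. NGFR, the low-affinity neurotrophin receptor, has no kinase and marks neural crest stem cells. In melanoma, cells of the undifferentiated state are known for high AXL and EGFR with low MITF, which drives the pigment cell programme, and cells of the neural crest-like state for high NGFR. ERBB3 and KIT belong to the melanocyte lineage, where KIT carries the signal of stem cell factor. MET, PDGFRB, FGFR1 and IGF1R are known for restoring growth signals in cells under BRAF inhibition.

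SIRT5 RNA was at 8.44% of NT in KD1 and 20.04% in KD2 of A2058, 3.89% and 12.4% in A375, and 7.01% and 19.98% in SKMEL2. The A375 shares rest on 1 to 8 SIRT5 reads per library in KD1 and 7 to 15 in KD2, against 70 to 130 in NT. Levels are FPKM, read pairs scaled by gene length and library size, which allow comparison between genes. Each change is a knockdown arm minus NT, estimated with its SE by limma on log2(FPKM + 0.5), and a change was called at a Benjamini-Hochberg adjusted p under 0.05 over all genes tested. Library depth was 29339123 to 54452938 counted reads in A2058, 20183822 to 40462750 in SKMEL2 and 7096990 to 23892063 in A375. The A375 library KD2 replicate 3 stood apart from its arm, with a mean Pearson r of 0.966 with the other KD2 libraries and 0.961 with the NT libraries, while the other 26 libraries had 0.972 to 0.993 with their own arm. Receptor results that involve KD2 of A375 are therefore also given without it. Of 10 melanocytic markers, 10 reached 1 FPKM in SKMEL2, 9 or 10 in A2058 and 4 or 5 in A375, where MLANA, TYR, TYRP1, DCT and GPR143 averaged below 1 FPKM in every arm and SOX10, S100B and RAB38 were present. By arm means, no marker of leukocytes or endothelium reached 1 FPKM, and of 5 epithelial markers 1 or 2 did in SKMEL2, 0 or 1 in A375 and 0 in A2058. Of 5 fibroblast markers, 0 did in SKMEL2, 0 or 1 in A375 and 1 in A2058 (LUM, 16.0 ± 1.08 FPKM in KD1, 5.50 ± 0.425 in KD2 and 9.32 ± 0.791 in NT).

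In the control arms the lines carried different sets of receptors. In the SKMEL2 controls ERBB3 was highest at 60.6 ± 2.35 FPKM (SD, n = 3), then NGFR at 42.0 ± 1.86, AXL at 16.0 ± 0.369, IGF1R at 15.3 ± 0.882, MET at 6.80 ± 0.425 and ERBB2 at 2.62 ± 0.0479, with FGFR1 at 0.623 ± 0.0178. AXL and IGF1R overlapped there, and PDGFRB, KIT and EGFR averaged 0.195, 0.0578 and 0.0116 FPKM. In the A375 controls AXL led at 74.7 ± 5.96 FPKM, followed by ERBB3 at 48.6 ± 0.866, IGF1R at 20.4 ± 0.902, MET at 10.04 ± 1.33, ERBB2 at 8.47 ± 0.629 and NGFR at 8.24 ± 1.46, then FGFR1 at 2.65 ± 0.308, PDGFRB at 1.42 ± 0.252 and EGFR at 0.498 ± 0.133, while KIT had no read. The ranges of MET and ERBB2, and of ERBB2 and NGFR, overlapped. In the A2058 controls ERBB3 came first at 31.0 ± 0.889 FPKM, then AXL at 23.3 ± 1.16, MET at 8.98 ± 0.715, IGF1R at 7.43 ± 0.478, ERBB2 at 6.12 ± 0.278, NGFR at 4.90 ± 0.429, KIT at 2.71 ± 0.260 and FGFR1 at 1.72 ± 0.0637, and PDGFRB and EGFR averaged 0.203 and 0.00340 FPKM, with no overlap between neighbours. NGFR and ERBB3 were thus highest in SKMEL2, AXL, IGF1R, ERBB2, FGFR1, PDGFRB and EGFR in A375, and KIT in A2058.

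**Figure D1:**
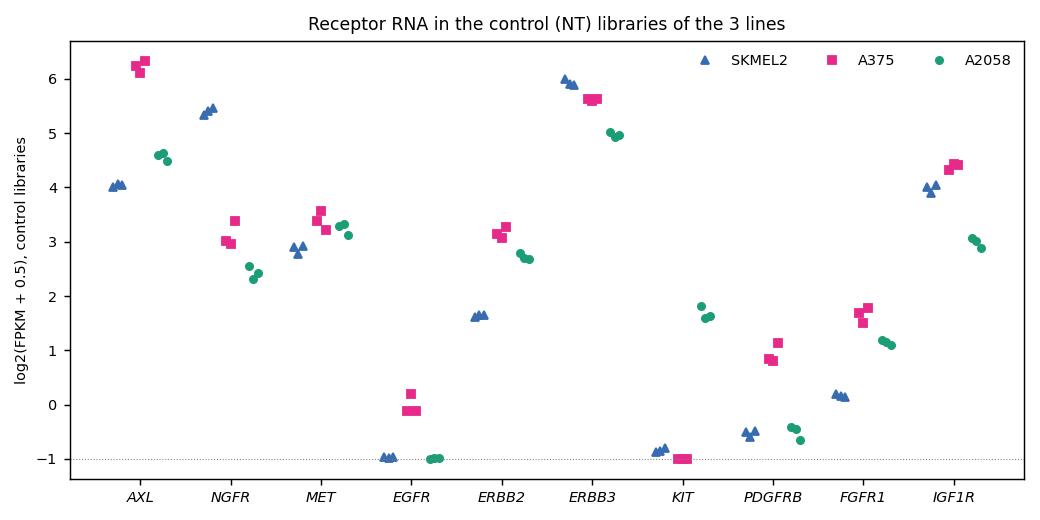
Receptor RNA in the control (NT) libraries, as log2(FPKM + 0.5) on the vertical axis, for SKMEL2 (triangles), A375 (squares) and A2058 (circles). Each point is 1 library, the dotted line marks an FPKM of 0, and NGFR is highest in SKMEL2, AXL in A375 and KIT in A2058.

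The differences between control groups were tested in a fit over all 27 libraries. NGFR was higher in SKMEL2 than in A375 by 2.29 ± 0.14 (adjusted p = 1.5e-12) and than in A2058 by 2.98 ± 0.14 (adjusted p = 1.6e-14). AXL was higher in A375 than in A2058 by 1.66 ± 0.09 (adjusted p = 1.8e-13), and in SKMEL2 it was lower than in A375, with a change of -2.19 ± 0.09 (adjusted p = 8.3e-16). IGF1R was higher in A375 than in A2058 by 1.40 ± 0.07 and higher in SKMEL2 than in A2058 by 1.00 ± 0.07. MET varied least between the lines. Its difference between A375 and A2058 did not pass (interval -0.23 to 0.53), nor did that between SKMEL2 and A2058 at -0.38 ± 0.18 (adjusted p = 0.07), which was called without A375 KD2 replicate 3 (adjusted p = 0.0054) and in limma-voom on reads recovered from the FPKM (adjusted p = 0.021). MET passed between SKMEL2 and A375 at -0.52 ± 0.18 (adjusted p = 0.013), and without A375 NT replicate 2 it did not (-0.43, adjusted p = 0.061). Of the 10 receptors, 8 were called higher and 1 lower in A375 than in A2058, where 70.7% of all genes were called, 35.6% higher and 35.1% lower. Between SKMEL2 and A375 2 were higher and 7 lower (73% of all genes called, 38.8% higher and 34.2% lower), and between SKMEL2 and A2058 3 were higher and 4 lower (69.2%, with 37.2% higher and 32% lower). EGFR, KIT and PDGFRB entered this fit only through the line in which they were highest, so their calls say no more than those levels do.

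With both hairpins against SIRT5, AXL, NGFR and MET rose in SKMEL2 and NGFR and MET in A2058. In A375 none of them was called with both hairpins. AXL (ENSG00000167601, chr19:41219223-41261766, plus strand) is the receptor of the ligand GAS6. In SKMEL2 it had 25.6, 31.7 and 28.9 FPKM in KD1 and 18.2, 20.03 and 19.5 FPKM in KD2, against 15.6, 16.3 and 16.1 FPKM in NT. Every knockdown library of SKMEL2 lay above its controls. The change was 0.82 ± 0.07 in KD1 (adjusted p = 4.9e-06) and 0.26 ± 0.07 in KD2 (adjusted p = 0.0083). In A2058 AXL had 28.9, 28.4 and 26.8 FPKM in KD1 and 24.8, 22.8 and 24.7 FPKM in KD2, against 23.8, 24.2 and 22.0 FPKM in NT. KD1 stood above the controls without overlap and KD2 overlapped them. AXL rose by 0.26 ± 0.05 in KD1 of A2058 (adjusted p = 0.0011), while KD2 did not pass (interval -0.07 to 0.16). With quantile normalization the KD1 change of AXL in A2058 was 0.09 and no longer called (adjusted p = 0.16).

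In A375, where AXL was already the highest receptor, it had 103, 92.5 and 108 FPKM in KD1 and 86.2, 77.7 and 66.1 FPKM in KD2, against 75.4, 68.5 and 80.3 FPKM in NT. KD1 again lay above all controls, and KD2 overlapped them. AXL rose by 0.43 ± 0.13 in KD1 of A375 (adjusted p = 0.02), a call that was lost without NT replicate 1, NT replicate 2, KD1 replicate 1 or KD1 replicate 3 (adjusted p from 0.058 to 0.082) and with quantile normalization (0.08, adjusted p = 0.24). The KD2 change of AXL in A375 was 0.03 ± 0.13 (adjusted p = 0.85), 0.13 without KD2 replicate 3 (adjusted p = 0.34), and with quantile normalization it turned to -0.26 and was called (adjusted p = 0.0052).

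NGFR (ENSG00000064300, chr17:49495293-49515008, plus strand) had the largest difference in response between any pair of lines. By the F-test over the lines KIT and ERBB3 had the higher F values (130 for KIT and 122 for ERBB3, against 75.7 for NGFR). KIT had 0 reads in A375 and 2 to 17 in SKMEL2, so its F value rests on A2058 and on near-constant values elsewhere. In A2058 NGFR had 13.6, 14.2 and 13.9 FPKM in KD1 and 9.71, 9.78 and 13.2 FPKM in KD2, against 5.33, 4.48 and 4.88 FPKM in NT. All 6 knockdown libraries were above the controls, at 2.84 times the NT mean in KD1 and 2.22 times in KD2. The change was 1.42 ± 0.10 in KD1 (adjusted p = 6.9e-07) and 1.07 ± 0.10 in KD2 (adjusted p = 6.3e-06). In SKMEL2, where its control level was the highest, NGFR had 69.6, 84.7 and 77.1 FPKM in KD1 and 59.8, 69.4 and 63.4 FPKM in KD2, against 40.1, 42.2 and 43.8 FPKM in NT. Again no knockdown library overlapped the controls, and NGFR rose by 0.86 ± 0.08 in KD1 (adjusted p = 6.3e-06) and 0.60 ± 0.08 in KD2 (adjusted p = 8.5e-05). In A375 NGFR had 2.70, 2.22 and 2.76 FPKM in KD1 and 9.99, 8.02 and 6.19 FPKM in KD2, against 7.56, 7.26 and 9.92 FPKM in NT. All KD1 libraries of A375 lay below the controls and KD2 overlapped them. NGFR fell by 1.51 ± 0.18 in KD1 of A375 (adjusted p = 0.00015), while its KD2 change of -0.04 ± 0.18 did not pass (adjusted p = 0.87) and was 0.12 without KD2 replicate 3 (adjusted p = 0.52). The knockdown effect on NGFR in A375 was lower than that in A2058 by 2.02 ± 0.17 (adjusted p = 9.3e-09), and that in SKMEL2 was higher than that in A375 by 1.51 ± 0.17 (adjusted p = 5.3e-07). Without A375 KD2 replicate 3 these differences were -1.93 (adjusted p = 2.4e-09) and 1.43 (adjusted p = 1.4e-07). NGFR shares 924 and 202 exon bases with a pair of genes on the other strand (ENSG00000279036 and NGFR-AS1), and reads of these overlaps cannot be told apart where counting ignores the strand, which no source used here states.

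MET (ENSG00000105976, chr7:116672196-116798377, plus strand) is the receptor of hepatocyte growth factor. In A2058 it had 26.2, 24.4 and 23.7 FPKM in KD1 and 18.6, 17.1 and 19.2 FPKM in KD2, against 9.24, 9.52 and 8.17 FPKM in NT. KD1 averaged 2.76 times and KD2 2.04 times the NT mean, with no overlap. MET rose by 1.42 ± 0.07 in KD1 (adjusted p = 2.9e-08) and by 0.99 ± 0.07 in KD2 of A2058 (adjusted p = 3.9e-07). In SKMEL2 it had 14.1, 15.1 and 14.5 FPKM in KD1 and 8.21, 8.59 and 7.68 FPKM in KD2, against 7.02, 6.31 and 7.07 FPKM in NT. All 6 knockdown libraries were higher than the controls, KD1 more so than KD2, with changes of 1.05 ± 0.06 (adjusted p = 3.3e-07) and 0.25 ± 0.06 (adjusted p = 0.0036). The KD2 change did not pass in the fit over all 27 libraries (adjusted p = 0.3). In A375 MET had 12.0, 16.4 and 10.3 FPKM in KD1 and 6.05, 6.18 and 12.5 FPKM in KD2, against 9.99, 11.4 and 8.74 FPKM in NT. Here KD2 replicate 3 lay above the controls and its arm's other libraries below them. Neither arm of A375 passed, at 0.32 ± 0.27 in KD1 (adjusted p = 0.34) and -0.34 ± 0.27 in KD2 (adjusted p = 0.31). Without KD2 replicate 3, MET in KD2 of A375 was lower than in NT, with a change of -0.67 (adjusted p = 0.0089). The knockdown effect on MET in A375 was lower than that in A2058 by 1.21 ± 0.22 (adjusted p = 0.00014), and without A375 KD2 replicate 3 the difference was -1.37 (adjusted p = 1.0e-07).

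**Figure D2:**
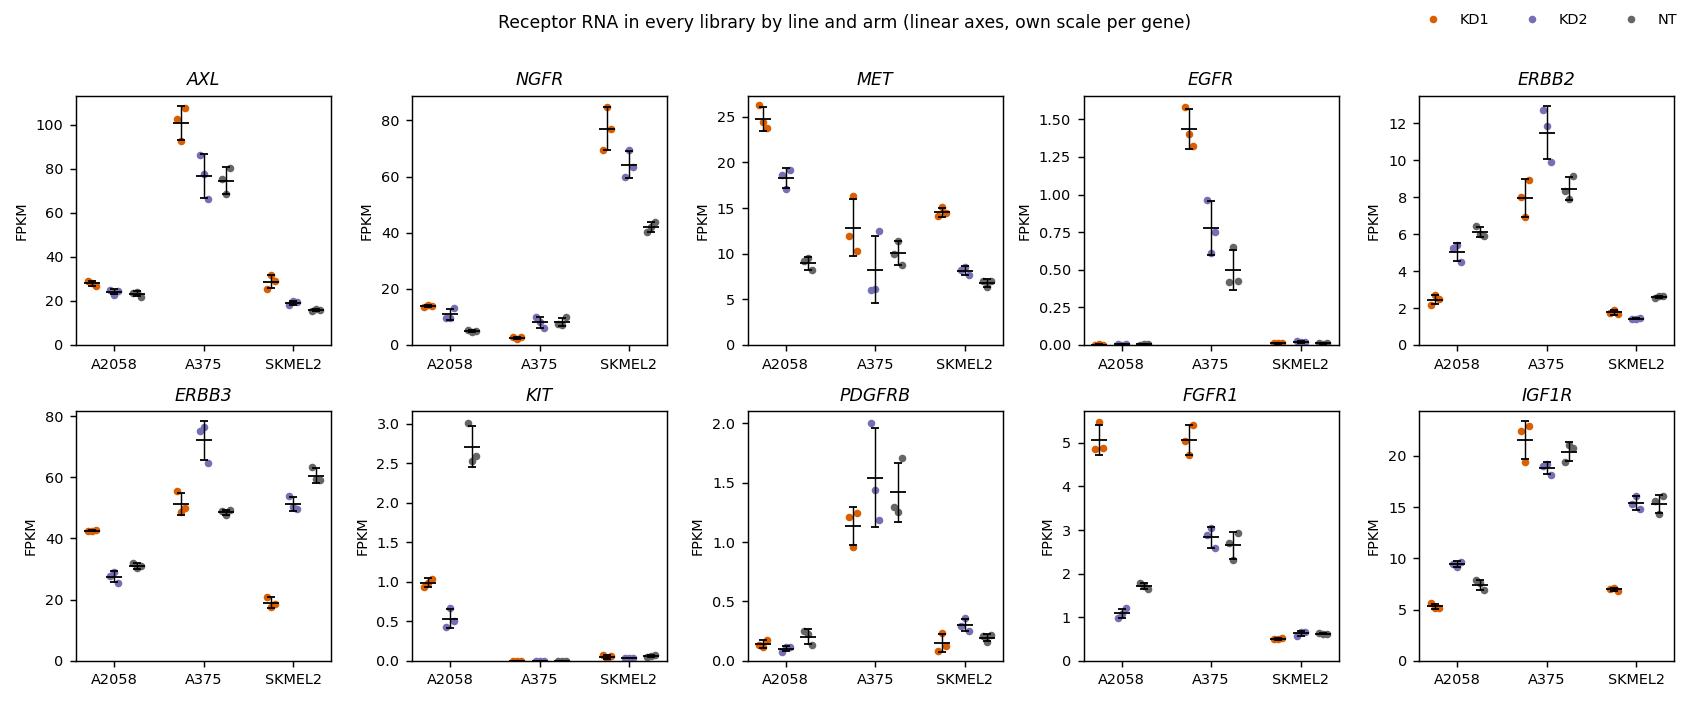
FPKM of each receptor in every library, by line on the horizontal axis, with KD1 (orange), KD2 (purple) and NT (grey) from left to right in each line. Points are libraries, bars are the mean and SD of n = 3, and each panel has its own linear axis from 0. MET and NGFR stand above NT in all knockdown libraries of A2058 and SKMEL2, and ERBB2 and KIT stand below NT in those of A2058.

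The start-site regions of MET and ERBB2 are shown because, of the receptors with a RefSeq promoter sequence, these were called with both hairpins in A2058 and in SKMEL2, MET higher and ERBB2 lower. Each holds 250 bases before and 50 bases after a start annotated in RefSeq on the plus strand of GRCh38.p14, in lower case with the motifs searched for in capitals. Whether these cells use that start was not tested. The motifs were CACGTG and CATGTG, which MITF and related factors can bind, and TGANTCA, searched on both strands. N stands for any base, and AP-1 factors can bind some forms of TGANTCA.
MET chr7:116671946-116672245: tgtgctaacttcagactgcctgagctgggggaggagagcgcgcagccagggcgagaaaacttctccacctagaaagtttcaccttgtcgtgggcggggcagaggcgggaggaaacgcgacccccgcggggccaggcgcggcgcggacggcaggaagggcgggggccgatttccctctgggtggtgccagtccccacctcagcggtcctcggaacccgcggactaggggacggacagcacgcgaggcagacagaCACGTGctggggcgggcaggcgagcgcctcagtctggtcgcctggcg
ERBB2 chr17:39687844-39688143: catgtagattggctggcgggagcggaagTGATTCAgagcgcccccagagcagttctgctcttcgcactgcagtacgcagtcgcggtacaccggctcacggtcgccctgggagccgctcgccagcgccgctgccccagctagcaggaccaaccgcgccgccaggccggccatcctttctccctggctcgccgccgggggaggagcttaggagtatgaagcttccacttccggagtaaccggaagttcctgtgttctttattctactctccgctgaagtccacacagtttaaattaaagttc
MET holds CACGTG 4 bases after its start site, a motif present in 7.26% of 35116 RefSeq regions of 300 bases. ERBB2 holds TGANTCA, in the form TGATTCA, 222 bases before the start site shown, and TGANTCA in any form is present in 7.71% of these regions. No other start of ERBB2 was searched. ERBB2 shares exon bases with PGAP3 on the other strand, and whether the motif lies within PGAP3 was not examined. Whether AP-1 factors bind the form in ERBB2 was not tested. The table gave promoters for 7 of the 10 receptors. None of the 3 motifs was found in the region of KIT, PDGFRB or IGF1R, or at the first annotated start of AXL or EGFR. A second start of AXL held CATGTG (11.1% of all regions), and a second start of EGFR held CATGTG and TGANTCA. A match is a description of these letters and not of binding.

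The ERBB family split between lines and hairpins. ERBB2 (ENSG00000141736, chr17:39687914-39730426, plus strand) has no known ligand and pairs with the other members of the family. In A2058 it had 2.19, 2.70 and 2.49 FPKM in KD1 and 5.23, 5.395 and 4.47 FPKM in KD2, against 6.44, 6.02 and 5.91 FPKM in NT. Both arms lay below the controls without overlap, KD1 far more than KD2, at 0.402 and 0.822 times the NT mean. ERBB2 fell by 1.16 ± 0.08 in KD1 (adjusted p = 5.9e-07) and by 0.26 ± 0.08 in KD2 (adjusted p = 0.017). The KD2 call was lost without NT replicate 1 (adjusted p = 0.061), without KD2 replicate 3 (adjusted p = 0.068) with equal library medians (adjusted p = 0.061) and with quantile normalization (adjusted p = 0.051). In SKMEL2 it had 1.71, 1.90 and 1.67 FPKM in KD1 and 1.41, 1.41 and 1.45 FPKM in KD2, against 2.56, 2.66 and 2.63 FPKM in NT. All knockdown libraries were lower than the controls, with changes of -0.46 ± 0.06 in KD1 (adjusted p = 9.6e-05) and -0.70 ± 0.06 in KD2 (adjusted p = 8.5e-06). In A375 ERBB2 had 8.02, 6.93 and 8.93 FPKM in KD1 and 12.7, 11.9 and 9.94 FPKM in KD2, against 8.35, 7.91 and 9.15 FPKM in NT. KD1 overlapped the controls and KD2 lay above them. ERBB2 rose by 0.42 ± 0.13 in KD2 of A375 (adjusted p = 0.032), or by 0.51 without KD2 replicate 3 (adjusted p = 0.0058), and the call was lost without NT replicate 1, NT replicate 2, KD1 replicate 1, KD2 replicate 1 or KD2 replicate 2 (adjusted p from 0.052 to 0.11). ERBB2 shares 571 exon bases with MIEN1 on the other strand, which averaged 42.4 ± 7.04 FPKM in KD1, 47.5 ± 12.1 in KD2 and 20.2 ± 3.11 in NT of A375, 23.1 ± 1.47 in KD1, 19.95 ± 0.112 in KD2 and 15.9 ± 0.505 in NT of SKMEL2, and 19.9 ± 1.47 in KD1, 18.05 ± 0.482 in KD2 and 15.1 ± 1.17 in NT of A2058. ERBB2 also shares 144 exon bases with PGAP3 on that strand, which averaged 11.3 ± 2.14 FPKM in KD1, 7.34 ± 1.47 in KD2 and 3.98 ± 0.190 in NT of A375, 3.33 ± 0.376 in KD1, 3.15 ± 0.158 in KD2 and 3.31 ± 0.282 in NT of SKMEL2, and 4.42 ± 0.226 in KD1, 1.59 ± 0.168 in KD2 and 2.52 ± 0.536 in NT of A2058. The same doubt about the strand holds here, and the part of these reads in the result was not tested.

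ERBB3 (ENSG00000065361, chr12:56076799-56103505, plus strand), the kinase-impaired receptor of neuregulins that pairs with ERBB2, was among the 2 highest receptors in the controls of every line. In SKMEL2 it had 21.0, 17.4 and 18.6 FPKM in KD1 and 54.0, 50.2 and 49.7 FPKM in KD2, against 63.3, 59.4 and 59.1 FPKM in NT. KD1 was at 0.314 times the NT mean and KD2 at 0.847 times, both without overlap. ERBB3 fell by 1.65 ± 0.06 in KD1 (adjusted p = 5.5e-08) and by 0.24 ± 0.06 in KD2 of SKMEL2 (adjusted p = 0.0092). In A2058 the hairpins gave opposite changes, with 42.5, 42.5 and 42.7 FPKM in KD1 and 27.8, 29.0 and 25.5 FPKM in KD2, against 31.9, 30.2 and 30.9 FPKM in NT. KD1 lay above and KD2 below the controls, at 0.45 ± 0.05 (adjusted p = 1.3e-05) and -0.17 ± 0.05 (adjusted p = 0.0084). The KD2 call in A2058 did not hold with equal library medians (-0.10, adjusted p = 0.073), and with quantile normalization the KD1 change there was 0.22 (adjusted p = 0.0033). In A375 ERBB3 had 55.4, 48.7 and 49.9 FPKM in KD1 and 75.1, 76.4 and 64.8 FPKM in KD2, against 49.0, 47.6 and 49.2 FPKM in NT. KD1 overlapped the controls, and KD2 stood above them. ERBB3 rose by 0.56 ± 0.11 in KD2 of A375 (adjusted p = 0.0032), or by 0.64 without KD2 replicate 3 (adjusted p = 0.0005) and by 0.29 with quantile normalization (adjusted p = 0.019). The KD1 change of ERBB3 in A375 was 0.08 ± 0.11 (adjusted p = 0.58), and with quantile normalization it turned to -0.25 and was called (adjusted p = 0.034).

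EGFR (ENSG00000146648, chr7:55019017-55211628, plus strand), the receptor of EGF, TGF-alpha and amphiregulin, was measurable in A375 only, from 64 to 282 reads per library, against 3 to 12 reads in SKMEL2 and 0 to 4 in A2058. In A375 it had 1.58, 1.41 and 1.32 FPKM in KD1 and 0.965, 0.611 and 0.754 FPKM in KD2, against 0.418, 0.651 and 0.424 FPKM in NT. KD1 stood at 2.89 times the NT mean without overlap, and the lowest KD2 library fell within the range of the controls. The KD1 change of EGFR in A375 was 0.96 ± 0.17 (adjusted p = 0.0014), on a log2(FPKM + 0.5) scale that understates changes at this level. EGFR passed the filter on low values, 1 FPKM in 3 libraries, only through these KD1 libraries, so its calls in A375 and over the lines rest on the arm in which it was high. With no filter on low values its adjusted p in KD1 was 0.0033. EGFR also shares 186 exon bases with EGFR-AS1 on the other strand, and AXL 67 with ENSG00000269652, under the same doubt. The KD2 change of EGFR was 0.35 ± 0.17 (adjusted p = 0.12), and 0.36 without KD2 replicate 3 (adjusted p = 0.14). It passed in limma-voom on the recovered reads, at 0.63 (adjusted p = 0.041). In the fit over all 27 libraries it passed at an unchanged estimate (adjusted p = 0.0023). That fit takes its spread also from SKMEL2 and A2058, where EGFR had nearly no reads, so this call adds nothing to the A375 values. The authors' deposited table gives EGFR in A375 a log2 fold change of 1.16 (adjusted p = 0.0055).

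KIT (ENSG00000157404, chr4:54657267-54740783, plus strand) is the stem cell factor receptor of melanocytes. In A2058 it had 0.934, 0.990 and 1.04 FPKM in KD1 and 0.427, 0.667 and 0.5001 FPKM in KD2, against 3.00, 2.53 and 2.58 FPKM in NT. Both arms lay well below the controls, at 36.5% of the NT mean in KD1 and 19.6% in KD2, from 82 to 641 reads per library. The change of KIT was -1.11 ± 0.12 in KD1 (adjusted p = 9.9e-06) and -1.64 ± 0.12 in KD2 (adjusted p = 5.5e-07). KIT passed the filter on low values in A2058 through its controls, the arm in which it was high, since only 1 knockdown library reached 1 FPKM. With no filter on low values the adjusted p was 8.0e-05 in KD1 and 8.3e-06 in KD2. In SKMEL2 KIT had 2 to 17 reads per library and no more than 0.0708 FPKM. A375 had 0 KIT reads in all 9 libraries, which allows up to 0.0918 FPKM in the shallowest of them, and so no change could be measured there. These limits cover counting error only. In bulk RNA, fewer cells that express a gene and less of its RNA per cell cannot be told apart. PDGFRB (ENSG00000113721, chr5:150113839-150155872, minus strand), a receptor of platelet-derived growth factors, passed the filter on low values in A375 alone, where it had 1.21, 0.954 and 1.25 FPKM in KD1 and 2.00, 1.44 and 1.19 FPKM in KD2, against 1.30, 1.25 and 1.71 FPKM in NT. KD2 overlapped the controls and KD1 ended just under the lowest of them. The changes did not pass, with intervals of -0.64 to 0.19 in KD1 and -0.33 to 0.49 in KD2, and the KD2 change was 0.21 without KD2 replicate 3 (adjusted p = 0.35). PDGFRB stayed at or below 0.356 FPKM in SKMEL2 and 0.247 FPKM in A2058.

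FGFR1 (ENSG00000077782, chr8:38400215-38468834, minus strand), a receptor of fibroblast growth factors, rose in KD1 of A2058 and A375 and fell in KD2 of A2058. In A2058 it had 4.85, 5.47 and 4.88 FPKM in KD1 and 0.986, 1.08 and 1.203 FPKM in KD2, against 1.78, 1.71 and 1.65 FPKM in NT. KD1 stood at 2.95 times the NT mean and KD2 at 0.636 times, on opposite sides of the controls. The change was 1.33 ± 0.08 in KD1 (adjusted p = 1.7e-07) and -0.48 ± 0.08 in KD2 (adjusted p = 0.00035). In A375 FGFR1 had 5.05, 4.73 and 5.42 FPKM in KD1 and 2.88, 3.05 and 2.58 FPKM in KD2, against 2.70, 2.32 and 2.93 FPKM in NT. KD1 was above the controls at 1.91 times their mean, and KD2 overlapped them. FGFR1 rose by 0.82 ± 0.13 in KD1 of A375 (adjusted p = 0.00058), while KD2 did not pass, with an interval of -0.20 to 0.37 and a change of 0.14 without KD2 replicate 3 (adjusted p = 0.37). In SKMEL2 no library reached 1 FPKM, and FGFR1 was not tested there, with 0.4998 ± 0.0144 FPKM in KD1, 0.626 ± 0.0577 in KD2 and 0.623 ± 0.0178 in NT. FGFR1 shares 387 exon bases with ENSG00000255201 and 138 with LETM2 on the other strand, and LETM2 did not exceed 0.911 FPKM in any library, again under the doubt about the strand.

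IGF1R (ENSG00000140443, chr15:98648539-98964530, plus strand), the receptor of insulin-like growth factors, fell with KD1 in SKMEL2 and A2058. In SKMEL2 it had 6.98, 7.10 and 6.82 FPKM in KD1 and 15.3, 16.1 and 14.8 FPKM in KD2, against 15.6, 14.4 and 16.1 FPKM in NT. KD1 lay far below the controls at 0.454 times their mean, and KD2 overlapped them. IGF1R fell by 1.08 ± 0.05 in KD1 (adjusted p = 1.3e-07), whereas the KD2 difference of 0.01 ± 0.05 had an interval of -0.10 to 0.12. In A2058 IGF1R had 5.62, 5.11 and 5.18 FPKM in KD1 and 9.47, 9.17 and 9.69 FPKM in KD2, against 7.84, 7.54 and 6.91 FPKM in NT. KD1 lay below and KD2 above the controls, with changes of -0.45 ± 0.06 (adjusted p = 5.4e-05) and 0.33 ± 0.06 (adjusted p = 0.00055). In A375 it had 22.4, 19.4 and 22.9 FPKM in KD1 and 19.0, 19.2 and 18.1 FPKM in KD2, against 19.4, 21.1 and 20.8 FPKM in NT. KD1 overlapped the controls and KD2 ended just under the lowest of them. Neither arm passed, with intervals of -0.16 to 0.31 in KD1 and -0.35 to 0.12 in KD2, and the KD2 change was -0.09 without KD2 replicate 3 (adjusted p = 0.48).

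**Figure D3:**
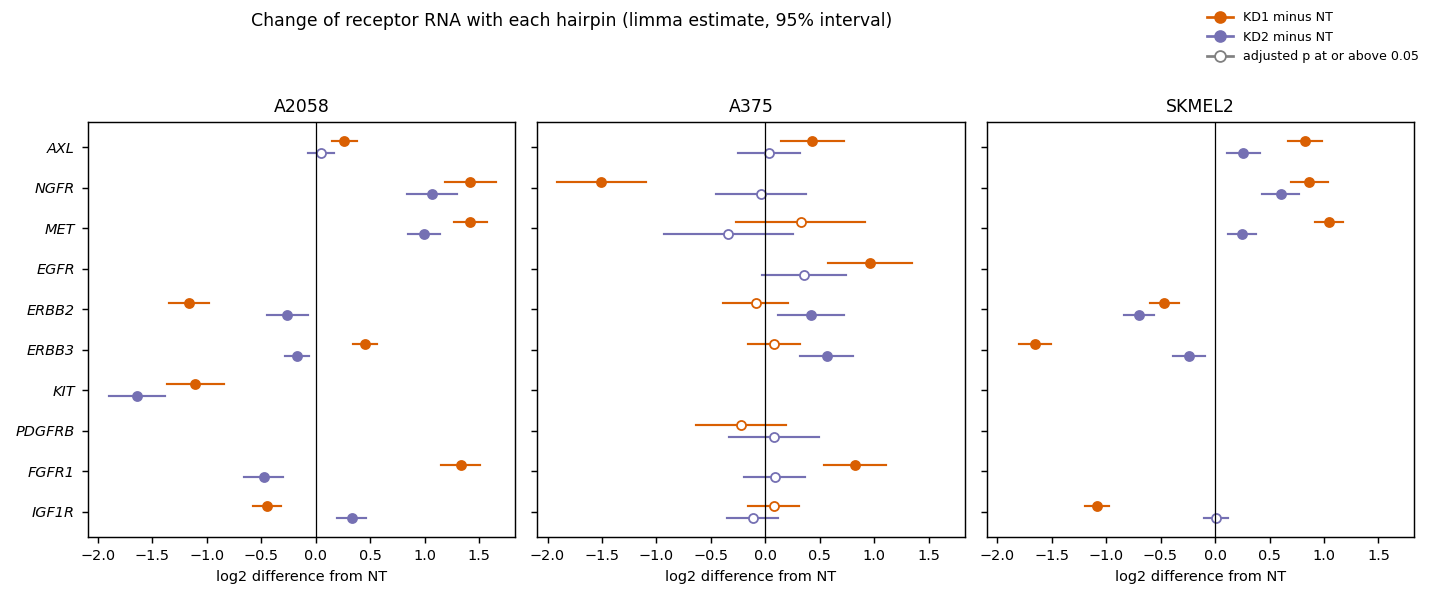
Difference from NT in log2(FPKM + 0.5) of each receptor with KD1 (orange) and KD2 (purple) in the 3 lines, with 95% intervals from limma. Filled points have an adjusted p under 0.05, and receptors with no point did not pass the filter on low values in that line. NGFR and MET lie right of 0 with both hairpins in A2058 and SKMEL2, while FGFR1, ERBB3 and IGF1R lie on opposite sides of 0 in A2058.

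The hairpins differed from each other in most receptors. In A2058 all 8 receptors tested were called between KD2 and KD1, where 72.3% of all genes were called, and the largest difference was that of FGFR1 at -1.81 ± 0.08 (adjusted p = 1.6e-08). The A2058 differences of AXL and NGFR were lost with equal library medians (adjusted p = 0.14 for AXL and 0.078 for NGFR) and with quantile normalization (adjusted p = 0.54 for AXL and 0.14 for NGFR). In SKMEL2 all 6 tested were called (68.5% of all genes), led by ERBB3 at 1.41 ± 0.06 (adjusted p = 1.0e-07) and IGF1R at 1.09 ± 0.05 (adjusted p = 9.8e-08). In A375 6 of 9 were called (38.1% of all genes), led by NGFR at 1.47 ± 0.18 (adjusted p = 0.0002), and without KD2 replicate 3 the count was again 6, with MET called (-0.99, adjusted p = 0.0012) and AXL not (adjusted p = 0.056). Without KD2 replicate 2 of A375 the count was 3. SIRT5 RNA was also at a higher share of NT in KD2 than in KD1 of each line, and the part of this in the differences was not tested. In A375 these shares rest on no more than 15 SIRT5 reads per knockdown library.

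Called with both hairpins in A2058 were MET and NGFR upward (19.3% of all genes) and KIT and ERBB2 downward (17.7%), while FGFR1, ERBB3 and IGF1R were called in opposite directions (15.5%). In SKMEL2 AXL, MET and NGFR were called upward with both hairpins (17.5%) and ERBB2 and ERBB3 downward (15.9%), and no receptor in opposite directions (12.4%). In A375 no receptor was called with both hairpins in either direction (12.9% of all genes upward, 9.38% downward), nor in opposite directions (3.35%). KD1 alone was called in 8 of 8 receptors in A2058 (70.5% of all genes called), 4 of 9 in A375 (46.5%) and 6 of 6 in SKMEL2 (67.6%), and KD2 alone in 7 of 8 in A2058 (70.2%), 2 of 9 in A375 (43.4%) and 5 of 6 in SKMEL2 (63.2%). Without A375 KD2 replicate 3 the KD2 count in A375 was 3. The KD1 and KD2 comparisons of a line share their control libraries. For the mean of both arms, 7 of 8 receptors were called in A2058, 5 up and 2 down (69.3% of all genes called, 34.6% up and 34.7% down), 4 of 9 in A375, 3 up and 1 down (47.9%, with 26.2% up and 21.7% down), and 6 of 6 in SKMEL2, 3 up and 3 down (65.3%, with 32.9% up and 32.4% down). Without A375 KD2 replicate 3, AXL was added to the A375 calls (0.28, adjusted p = 0.024). The A2058 call of AXL (0.15) was lost without NT replicate 3 (adjusted p = 0.064), with quantile normalization (0.067, adjusted p = 0.19) and in the fit over all 27 libraries (adjusted p = 0.1). That of ERBB3 in A2058 (0.14) was lost without NT replicate 2 (adjusted p = 0.057), with quantile normalization (0.014, adjusted p = 0.8) and in the fit over all 27 libraries (adjusted p = 0.07). The A375 call of ERBB3 (0.32, adjusted p = 0.018) was lost without NT replicate 1, NT replicate 2 or KD1 replicate 1 (adjusted p from 0.052 to 0.077) and with quantile normalization (0.022, adjusted p = 0.82). The counts include KIT in A2058 and EGFR in A375, each tested through the arm in which it was high. Beside such high shares among all genes, and with so few receptors tested, the counts are no result about receptors as a class.

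In the mean over the lines, MET rose by 0.61 ± 0.09 (adjusted p = 4.0e-06), NGFR by 0.40 ± 0.07 (adjusted p = 3.3e-05), AXL by 0.31 ± 0.04 (adjusted p = 2.4e-06), and FGFR1 by 0.27 ± 0.04 (adjusted p = 6.2e-06). EGFR, which reached 1 FPKM in KD1 of A375 alone, had a mean of 0.23 ± 0.05 (adjusted p = 0.00019), so this value describes A375 and not the lines in common. KIT, measurable in A2058 alone, had a mean of -0.47 ± 0.04 (adjusted p = 8.5e-10), which describes A2058 beside near-constant values in the other lines. In limma-voom on the recovered reads the mean of KIT was -0.81 (adjusted p = 0.013). ERBB2 fell by 0.38 ± 0.05 (adjusted p = 4.7e-07), IGF1R by 0.21 ± 0.03 (adjusted p = 1.0e-05) and ERBB3 by 0.16 ± 0.04 (adjusted p = 0.00043), and 64.1% of all genes were called in this fit, 32% up and 32% down. PDGFRB did not pass (adjusted p = 0.36). By hairpin over the lines, FGFR1 was called higher in KD1 (0.66, adjusted p = 4.4e-11) and lower in KD2 (-0.13, adjusted p = 0.019). Its KD2 change was -0.48 in A2058 and 0.08 in A375 (adjusted p = 0.6). In SKMEL2 FGFR1 averaged 0.626 FPKM in KD2 and 0.623 in NT, so the fall in KD2 describes A2058. AXL (0.11, adjusted p = 0.057), ERBB3 (0.05, adjusted p = 0.3) and IGF1R (0.07, adjusted p = 0.1) did not pass in KD2. MET (0.30, adjusted p = 0.017) and ERBB2 (-0.18, adjusted p = 0.0068) did. These values by hairpin include A375 KD2 replicate 3. The effect differed between the lines for 9 of the 10 receptors by limma's F-test, all but PDGFRB (61.1% of all genes called), and those with few reads in a line could differ there only through the others. Without A375 KD2 replicate 3 the same 9 receptors were called over the lines (adjusted p up to 0.0003) and in the F-test (adjusted p up to 0.0024). In limma-voom on the recovered reads the EGFR change over the lines did not pass (adjusted p = 0.064). The authors' deposited DESeq2 tables, which set all knockdown against all control libraries, call fewer receptors: KIT, MET and NGFR in A2058 (23% of all genes called), EGFR in A375 (24.7%), AXL, ERBB2, MET and NGFR in SKMEL2 (24.6%), and AXL, EGFR, MET, ERBB2 and KIT over the lines (27.8%). In the authors' deposited tables MET has a log2 fold change of 1.27 (adjusted p = 8.0e-11) in A2058 and 0.72 (adjusted p = 0.027) in SKMEL2, and KIT one of -1.82 (adjusted p = 3.1e-08) in A2058.

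Of the 10 melanocytic markers, 2 rose and 6 fell over the lines (median -0.39 against -0.002 for all genes). MITF averaged 13.5 ± 0.662 FPKM in KD1, 16.4 ± 1.87 in KD2 and 35.2 ± 2.23 in NT of A2058, 8.80 ± 1.24 in KD1, 10.4 ± 1.00 in KD2 and 22.1 ± 1.05 in NT of SKMEL2, and 1.40 ± 0.386 in KD1, 1.88 ± 0.844 in KD2 and 3.54 ± 0.889 in NT of A375. It fell in A375 by 0.94 (adjusted p = 0.0083), or by 1.07 without KD2 replicate 3. DCT and TYRP1, enzymes of pigment synthesis, fell by 1.33 ± 0.07 and 0.94 ± 0.05 over the lines. DCT changed by -2.23 in A2058 and -1.72 in SKMEL2, and TYRP1 by -2.01 and -0.90. Neither was tested in A375, where arm means did not exceed 0.0211 FPKM for DCT and 0.0982 for TYRP1. The values over the lines thus describe A2058 and SKMEL2. S100B, a calcium-binding protein, rose by 0.80 ± 0.05 over the lines, with 1.59 in A2058 and 1.19 in A375 but -0.36 in SKMEL2 (adjusted p = 0.00078). The summed level of the 10 melanocytic markers ran from 803 to 1058 FPKM in KD1, 1053 to 1111 in KD2 and 1800.4 to 2014 in NT of SKMEL2, and from 778 to 854 in KD1, 689.8 to 736 in KD2 and 926 to 959 in NT of A2058. In A375 it ran from 357 to 442 in KD1, 273 to 347 in KD2 and 237 to 260.3 in NT. The part of this shift in the receptor changes was not tested. Of 13 genes of the undifferentiated state tested over the lines, 4 rose and 6 fell, with a median of -0.11. Large changes among them were those of NT5E, an ectonucleotidase, at 1.66 ± 0.06, NRP1, a co-receptor of semaphorins and VEGF, at 1.06 ± 0.05, and CCN2, a target of YAP, at -0.81 ± 0.05. NT5E and NRP1 averaged above NT in both arms of A2058 and SKMEL2, but in A375 in KD1 only. There NT5E averaged 41.2 ± 5.60 FPKM in KD1, 8.62 ± 2.19 in KD2 and 11.1 ± 1.05 in NT. NRP1 averaged 20.7 ± 1.83 in KD1, 7.74 ± 1.23 in KD2 and 9.07 ± 0.791 in NT of A375.

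Among 18 ligands tested over the lines, 4 rose and 5 fell (median -0.05). HBEGF, a ligand of EGFR, rose by 1.21 ± 0.05 (adjusted p = 2.7e-14). In A2058 HBEGF had 12.3, 10.7 and 11.1 FPKM in KD1 and 13.01, 12.4 and 16.0 FPKM in KD2, against 3.26, 3.05 and 3.30 FPKM in NT. All knockdown libraries of A2058 exceeded the controls, and HBEGF was called higher in A375 (1.04, or 1.01 without KD2 replicate 3) and SKMEL2 (0.80) too. GAS6, the ligand of AXL, rose by 1.08 ± 0.07 (adjusted p = 2.4e-11). In A375 GAS6 had 40.9, 38.1 and 52.6 FPKM in KD1 and 8.01, 7.93 and 6.71 FPKM in KD2, against 5.18, 4.45 and 5.01 FPKM in NT. KD1 stood far above KD2 and the controls, and no knockdown library overlapped the controls. GAS6 rose by 0.59 in A2058, where it averaged 11.2 ± 0.570 FPKM in KD1, 6.18 ± 0.781 in KD2 and 5.36 ± 0.593 in NT, and by 0.83 in SKMEL2. For AREG, another EGFR ligand, A375 had 23.3, 19.7 and 25.8 FPKM in KD1 and 4.25, 4.15 and 4.07 FPKM in KD2, against 13.2, 13.4 and 15.3 FPKM in NT. There KD1 was above and KD2 below the controls, whereas in A2058 AREG rose by 2.12 ± 0.08 (adjusted p = 9.8e-09). FGF2, a ligand of FGFR1, changed by -0.43 ± 0.07 over the lines, by -1.14 in A375 (-1.24 without KD2 replicate 3) and by -0.31 in SKMEL2. In A2058 its change was 0.17 (adjusted p = 0.045), with 6.01 ± 0.211 FPKM in KD1, 2.54 ± 0.190 in KD2 and 3.47 ± 0.342 in NT, so KD1 was above and KD2 below the controls' mean. Some cognate ligands, named here after their values were seen, were low: HGF, the MET ligand, did not exceed 0.480 FPKM in A2058, 0.150 in A375 or 0.0319 in SKMEL2. NRG1, a ligand of ERBB3, did not exceed 0.843 FPKM in A2058, 0.0893 in A375 or 0.0833 in SKMEL2.

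**Figure D4:**
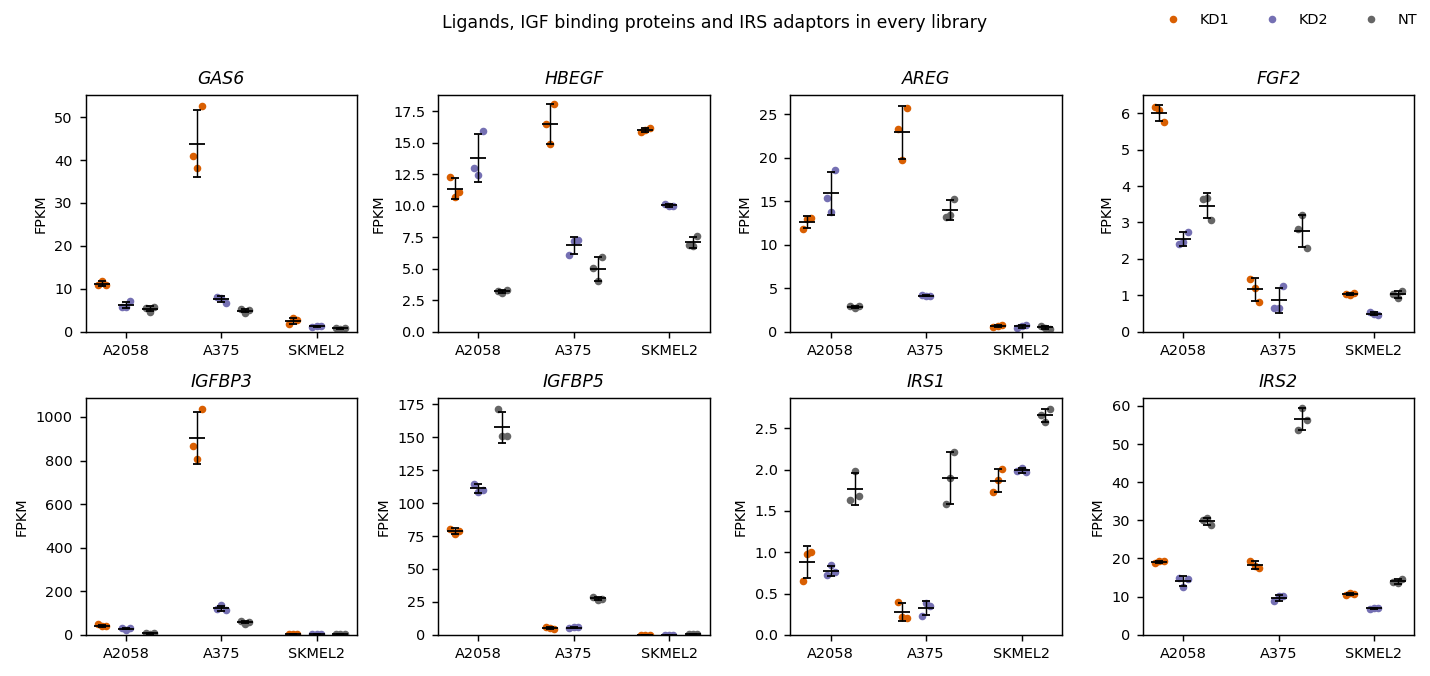
FPKM of ligands (GAS6, HBEGF, AREG, FGF2), IGF binding proteins (IGFBP3, IGFBP5) and adaptors (IRS1, IRS2) in every library, by line, with KD1 (orange), KD2 (purple) and NT (grey) from left to right. Points are libraries, bars are the mean and SD of n = 3 on linear axes from 0. HBEGF stands above and IRS2 below NT in the knockdown libraries of all 3 lines.

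IRS2, an adaptor of the insulin and IGF receptors, fell in every line. In A375 it had 19.4, 18.02 and 17.4 FPKM in KD1 and 8.80, 10.05 and 10.03 FPKM in KD2, against 53.8, 59.4 and 56.2 FPKM in NT. No knockdown library overlapped the controls in that line. The change of IRS2 was -1.19 ± 0.03 over the lines (adjusted p = 1.2e-17), -0.84 ± 0.05 in A2058, -2.05 ± 0.09 in A375 (-2.06 without KD2 replicate 3) and -0.66 ± 0.04 in SKMEL2. IRS1 fell by 0.92 ± 0.06 over the lines (adjusted p = 1.1e-11), with low levels of 0.271 FPKM in KD1, 0.320 in KD2 and 1.90 in NT of A375. Of 6 IGF binding proteins tested 1 rose and 4 fell over the lines (median -0.37). IGFBP3 rose by 1.56 ± 0.07 (adjusted p = 3.4e-14). In A375 IGFBP3 had 866, 809 and 1035 FPKM in KD1 and 116, 136 and 114 FPKM in KD2, against 63.7, 51.6 and 59.2 FPKM in NT. KD1 was far above KD2, and both were above the controls. In SKMEL2 IGFBP3 changed by -0.21 ± 0.06 (adjusted p = 0.017). IGFBP5 fell by 1.15 ± 0.04 over the lines, IGFBP2 by 0.59 ± 0.06 and IGFBP6 by 0.41 ± 0.09, although IGFBP6 was called higher in SKMEL2 (0.24, adjusted p = 0.035). IGF1R itself had passed in neither arm of A375.

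Of 20 adaptors tested over the lines, 9 rose and 6 fell (median 0.03). Beside IRS1 and IRS2, the largest changes were those of STAT3, a transcription factor activated by receptor kinases, at 0.70 ± 0.03, and GAB1, a docking protein of MET and EGFR, at -0.57 ± 0.06. Changes over the lines did not hold in every line or arm. In A2058 STAT3 averaged 15.1 ± 0.673 FPKM in KD1, 33.5 ± 0.145 in KD2 and 19.0 ± 0.479 in NT. Of 18 negative regulators, 5 rose and 7 fell (median -0.08). SOCS3, an inhibitor of cytokine signalling, rose by 0.80 ± 0.06 and SH2B3, an adaptor that restrains kinase signalling, by 0.69 ± 0.03. SOCS3 averaged 6.72 ± 0.214 FPKM in KD1, 15.9 ± 0.928 in KD2 and 8.05 ± 0.717 in NT of A2058. In SKMEL2 it averaged 1.10 ± 0.0724 in KD1, 2.08 ± 0.202 in KD2 and 1.06 ± 0.0606 in NT. SH2B3 averaged 28.8 ± 1.03 FPKM in KD1, 21.7 ± 0.766 in KD2 and 22.8 ± 0.834 in NT of SKMEL2. The receptor phosphatases PTPRJ and PTPRF fell by 0.59 ± 0.04 and 0.43 ± 0.05 over the lines. The change of PTPRF was -1.10 in A2058 and -0.19 in SKMEL2 (adjusted p = 0.023), and it did not pass in A375 (-0.01, adjusted p = 0.94). Of 8 related receptors, 3 rose and 3 fell (median 0.05), namely IGF2R (0.53 ± 0.04), TYRO3 (0.44 ± 0.05) and INSR (0.12 ± 0.04) upward and FGFR3 (-1.02 ± 0.05), FGFR4 (-0.45 ± 0.07) and MERTK (-0.26 ± 0.07) downward. TYRO3 and MERTK are the other receptors of the AXL family. The change of TYRO3 did not pass in SKMEL2 (0.04, adjusted p = 0.53), and its KD2 mean in A2058 lay below NT. FGFR4 did not pass in A375 (0.16, adjusted p = 0.42). There it averaged 11.6 FPKM in KD1, 2.91 in KD2 and 5.19 in NT. In A2058 and SKMEL2 FGFR4 was called lower, but its KD1 libraries overlapped the controls and only KD2 lay below them. Of 10 sheddases and processing proteins, 3 rose and 4 fell (median -0.01), with the metalloproteinase ADAM15 at -0.56 ± 0.06, the chaperone HSP90AA1 at -0.36 ± 0.13, the sheddase ADAM10 at 0.36 ± 0.10 and RHBDF2, a partner of ADAM17, at -0.33 ± 0.04. The fall of HSP90AA1 came from A375 (-1.33, adjusted p = 0.0081, or -1.57 without KD2 replicate 3), while it was called higher in SKMEL2 (0.32, adjusted p = 2.4e-05) and did not pass in A2058 (-0.07, adjusted p = 0.18). ADAM10 did not pass in A375 (-0.29, adjusted p = 0.4), where it was called lower without KD2 replicate 3 (-0.48, adjusted p = 0.029), and was called higher in A2058 (0.72) and SKMEL2 (0.64).

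The genes whose pattern over the 27 libraries was most like each receptor's, by Pearson r of log2(FPKM + 0.5), were VCP (0.99), WIZ (0.98) and LETM1 (0.98) for AXL, TIMM8A (0.95), XRCC6 (0.95) and SLAMF7 (0.94) for NGFR, and SEMA3A (0.94), ASB3 (0.93) and ANTXR2 (0.93) for MET. For ERBB2 they were RGS19 (0.98), RAB3A (0.98) and SLC12A7 (0.97), and for ERBB3 AGAP3 (0.89), SLCO4A1-AS1 (0.85) and CNN2 (0.82). For FGFR1 they were PRSS23 (0.98), SPRR2D (0.97) and CHST7 (0.96), and for IGF1R SEZ6L2 (0.96), EPB41L4A-AS1 (0.93) and YBX3 (0.93). EGFR, KIT and PDGFRB, each found mainly in 1 line, had HS3ST3B1 (0.99) for EGFR, NDNF (0.99) for KIT and GLB1L2 (0.98) for PDGFRB at the head. The libraries fall into 3 lines, so these values describe differences between lines as much as responses to knockdown. ERBB3 had the lowest values, and its order of arms, with KD1 of SKMEL2 lowest at 19.0 FPKM and KD2 of A375 highest at 72.1 FPKM, crossed the lines.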

How the data were processed

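RNA of 27 libraries was measured by paired-end 50-nt RNA-seq. Per the submitters' processing notes, the authors' reads were trimmed with Trimmomatic 0.39, checked with FastQC 0.11.9 and MultiQC 1.9, aligned with STAR 2.7.3a, counted with featureCounts of Subread 2.0.0 and compared with DESeq2 1.28.1. The design text names GRCh38 with GENCODE 34. The authors deposited FPKM per gene and library. The authors' deposited DESeq2 tables also hold the base mean (a signal of normalised counts), the log2 fold change and the adjusted p-value. No source used here gives the strand setting or the FPKM step. Per the labels, 1 raw file of A375 NT replicate 2 was truncated.

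Whole reads were recovered as FPKM times the authors' deposited base mean over mean FPKM, times a size factor per library found from the step between its low values, and 100% of values came out whole within 0.05. Genes that reached 1 FPKM in 3 or more libraries of a fit were tested on log2(FPKM + 0.5) with limma 3.58.1 in R 4.3.3, with a mean-variance trend, per line (9 libraries) and over all 27 libraries, and p-values were Benjamini-Hochberg adjusted over all genes tested. The test was checked on simulated data. Intervals are 95% limma intervals. Gene positions come from GENCODE 44 on GRCh38 and promoters from RefSeq on GRCh38.p14. The receptors and gene lists were chosen with earlier results of these data known. All receptors are named, and of each list the 4 genes with the largest change over the lines, except 1 gene that is not reported here. Further genes are named where a sentence needs them (all related receptors that changed, and cognate ligands picked after their values were seen). Libraries were left out in turn, and pseudocount, filter, scaling, trend, replicate block and the tool were varied. Replicates differed from each other beyond counting noise. Same-numbered libraries were not paired by the labels.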

Additional observations from a re-analysis of the deposited data

Results flagged for a closer look

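The knockdown effect of 9 receptors differed between the lines by limma's F-test over all 27 libraries, where 61.1% of all genes were called. Adjusted p was 2.1e-10 for KIT, 3.5e-10 for ERBB3, 1.3e-08 for NGFR, 3.6e-06 for ERBB2, 1.7e-05 for IGF1R, 3.8e-05 for EGFR, 0.00011 for FGFR1, 0.00036 for MET and 0.0083 for AXL. KIT and EGFR had nearly no reads outside A2058 and A375, so their values rest on the line in which they were measurable. NGFR fell in A375 and rose in A2058 and SKMEL2, and ERBB3 rose in A375 and fell in SKMEL2, each by the mean of both hairpins. In A375 NGFR was called in KD1 only (-1.51, against -0.04 in KD2, adjusted p = 0.87). ERBB3 was called there in KD2 only (0.56, against 0.08 in KD1, adjusted p = 0.58). Without A375 KD2 replicate 3 the KD2 changes were 0.12 for NGFR and 0.64 for ERBB3. The ERBB3 rise in A375 (0.32, adjusted p = 0.018) was lost with quantile normalization (0.022, adjusted p = 0.82) and in the authors' deposited table (adjusted p = 0.21), which does not call the fall of ERBB3 in SKMEL2 (adjusted p = 0.099) or that of NGFR in A375 (adjusted p = 0.34).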

How the results depend on the processing

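Of the results for single receptors, 1208 under another setting and 1835 with 1 library left out kept their direction and their side of the threshold, 34 and 25 lost a call, 12 and 5 gained one, and 13 and 19 changed sign. The cause was not tested. Many estimates could not change, because the library left out was not part of the comparison or the setting moved only the spread or the genes tested. There only the adjusted p could move, so the counts do not measure how firm the results are. Leaving out 1 library, the receptors called ran from 6 to 7 in A2058, 2 to 5 in A375 and 6 to 6 in SKMEL2 for the knockdown mean, from 8 to 8, 2 to 4 and 6 to 6 for KD1, from 6 to 7, 1 to 3 and 5 to 5 for KD2, and from 8 to 8, 3 to 6 and 6 to 6 for KD2 minus KD1. Over the lines they ran from 8 to 9, for the difference between lines from 8 to 9, and for the baselines from 8 to 9 (A375 minus A2058), 8 to 10 (SKMEL2 minus A375) and 7 to 8 (SKMEL2 minus A2058). The authors' deposited tables called 3 receptors in A2058 and 1 in A375, and give no value for KD1 or KD2 alone. With a filter of FPKM 5 A375 had 2 for the mean and 2 for KD1, since fewer genes were tested. The replicate numbers did not pair the libraries (correlations of deviations from -0.53 to 0.33), and not every library matched its own number best. With the replicate block KD2 in A375 called 1 receptor, the A375 calls of ERBB3 for the mean (adjusted p = 0.055), AXL for KD1 (0.051) and KD2 minus KD1 (0.079) and ERBB2 for KD2 (0.072) and the MET baseline of SKMEL2 minus A375 (-0.38, adjusted p = 0.22) did not pass, and the MET baseline difference of A375 minus A2058 was -0.037.

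Signs changed mostly near 0 in A375. With quantile normalization AXL was -0.086 for the mean and -0.26 for KD2, PDGFRB 0.041 for the mean, ERBB3 -0.25 and IGF1R -0.13 for KD1, and the baselines were -0.0077 for KIT (SKMEL2 minus A375) and -0.090 for EGFR (SKMEL2 minus A2058). With equal library medians MET was 0.052 and IGF1R 0.038 for the mean and NGFR 0.069 for KD2. MET was 0.0036 for the mean in limma-voom and 0.066 in the authors' deposited table. Leaving out 1 library at a time, MET ran from -0.17 to 0.083, IGF1R from -0.057 to 0.014 and PDGFRB from -0.15 to 0.032 for the mean, ERBB2 from -0.17 to 0.0013 for KD1, and AXL from -0.056 to 0.13, NGFR from -0.20 to 0.12 and PDGFRB from -0.078 to 0.21 for KD2. IGF1R ran from -0.039 to 0.040 in KD2 of SKMEL2, and the PDGFRB baseline of SKMEL2 minus A2058 from -0.086 to 0.032.

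Counts over all genes moved by over 1.5 times in A2058, at 5118 in the authors' table against 8873, and with a filter of FPKM 5 at 6133 for KD2 minus KD1 against 9249. In SKMEL2 they were 5963 in the authors' table and 5461 with that filter against 9070, 5677 against 9397 for KD1, 5345 against 8788 for KD2 and 5686 against 9522 for KD2 minus KD1. That filter gave 6852 over the lines against 10354, and 7465, 7323 and 6976 for the baselines against 11422, 11797 and 11183. In A375 the fit over all 27 libraries called 9378 genes against 6054, 9140 against 5867 for KD1, 9093 against 5483 for KD2 and 8025 against 4811 for KD2 minus KD1. Without A375 NT replicate 2 the mean called 3974 and KD2 3334, without NT replicate 1 KD2 called 3605, and without KD2 replicate 2 3464. Equal library medians moved the median change of all genes in A375 to 0.11 in the fit over all 27 libraries, with 5526 genes higher and 3706 lower against 4704 and 4674, and gave 5988 higher and 4245 lower over the lines against 5177 and 5177. The depth of A375, the lowest of the lines, limits the receptors with few reads there, EGFR, PDGFRB and NGFR.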
